A study of Homo sapiens with 12 samples.

Results

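Transcripts of 10 genes at the G1/S step of the cell cycle were followed in MM1S cells exposed to NGI-1. They were the transcription factors E2F1, E2F2, E2F3, E2F4, E2F7 and E2F8, the cyclins CCNE1 and CCNE2, the kinase CDK2 and the phosphatase CDC25A. These genes were chosen by name from the E2F family and the cyclin E and CDK2 module, out of 59276 features listed in the expression table. Earlier results of these data were known when they were chosen. E2F5 and E2F6 of the same family were not among them and are described further below. MM1S is an established human multiple myeloma line, a plasma cell tumour grown in culture. NGI-1 is a small molecule inhibitor of the oligosaccharyltransferase, the enzyme complex that attaches N-linked sugar chains to proteins entering the endoplasmic reticulum. The 12 RNA-seq libraries comprised 3 of untreated cells (day 0) and 3 each of cells treated with 10 μM NGI-1 for 2, 3 and 5 days. All libraries came from the 1 cell line, and untreated libraries of the later days were not analysed here, so time in culture and NGI-1 cannot be told apart. Nothing in the labels says that libraries of a group came from separate cultures, so p-values measure the spread between these libraries, which may be technical.

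E2F proteins bind DNA as dimers with DP partners and are held in check by the retinoblastoma family of pocket proteins. In late G1 cyclin E activates CDK2, and CDC25A removes inhibitory phosphates from CDK2; phosphorylation of the pocket proteins then frees the activator E2Fs. Those activators induce the genes of DNA replication, and they also induce cyclin E, CDC25A and other E2Fs, so much of the module is itself under E2F control. Myeloma is known for frequent gains of D-type cyclin expression, which act on the same pocket proteins.

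Levels were measured as TPM, a transcript abundance scaled to transcript length and to a fixed total per library. All 10 genes were above 0 in all 12 libraries, and all were among the 11939 features tested, which had at least 1 TPM in at least 3 libraries. Fold changes are differences of log2(TPM + 1), which understate the change of genes near or below 1 TPM. A gene was called lower or higher at an adjusted p below 0.05 in limma and a log2 fold change above 0.5 in size. Read counts per gene were not analysed here, so the counting error of a single TPM value is unknown.

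The libraries expressed the markers of the labelled cell type. All 8 plasma cell and myeloma markers (SDC1, TNFRSF17, PRDM1, IRF4, XBP1, MZB1, CD38 and SLAMF7) had at least 1 TPM in every library, with summed levels of 3002 to 4037 TPM. The 13 markers of B, T, NK, monocytic, erythroid, stromal and epithelial cells summed to 3.21 to 7.54 TPM, almost all of it CD3E, while CD3D and EPCAM were listed at 0 in each group. Libraries of a group correlated at 0.992 to 0.996 across features. The make-up of the libraries changed with treatment. The 86 ribosomal protein genes held 28.7% ± 0.53 of all TPM (SD, n = 3) in untreated cells, 33.6% ± 0.33 at day 2, 42.5% ± 2.11 at day 3 and 48.5% ± 0.86 at day 5. The 37 mitochondrially encoded genes held 9.95% ± 0.70, 11.04% ± 0.17, 13.2% ± 0.76 and 14.2% ± 0.64. The part of either shift in the results below was not tested. Beside this, the 11939 tested features changed against untreated by a median of −0.18 (log2) at day 2, −0.73 at day 3 and −0.99 at day 5. Comparisons are therefore also given after rescaling each library so that the median ratio of its more abundant features was equal. On that scale the median of all tested features was 0.01, −0.03 and −0.02.

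Promoter sequences are shown for the genes on which the results turn, because several of these genes are known E2F targets themselves. The 100 bases before the RefSeq start are given 5′ to 3′ on the gene strand (GRCh38.p14), and capitals mark an exact match to an E2F motif. The motifs searched, on both strands, were TTTCCCGC, TTTGGCGC and TTTCGCGC.
E2F1, chr20:33686386-33686485, minus strand: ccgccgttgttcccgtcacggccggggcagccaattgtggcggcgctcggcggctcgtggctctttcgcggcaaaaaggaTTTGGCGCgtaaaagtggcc
E2F2, chr1:23531234-23531333, minus strand: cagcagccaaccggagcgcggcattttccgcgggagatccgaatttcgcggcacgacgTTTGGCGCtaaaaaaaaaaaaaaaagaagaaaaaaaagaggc
E2F3, chr6:20401779-20401878, plus strand: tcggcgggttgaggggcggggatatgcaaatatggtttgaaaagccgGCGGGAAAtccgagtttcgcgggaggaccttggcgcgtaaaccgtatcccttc
CDC25A, chr3:48188418-48188517, minus strand: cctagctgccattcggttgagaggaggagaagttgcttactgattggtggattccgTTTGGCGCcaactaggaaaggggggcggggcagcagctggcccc
E2F4, chr16:67192055-67192154, plus strand: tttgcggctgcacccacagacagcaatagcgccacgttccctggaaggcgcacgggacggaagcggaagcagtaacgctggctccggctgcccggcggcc
The letters TTTGGCGC stood at −20 to −13 in E2F1, at −42 to −35 in E2F2 and at −44 to −37 in CDC25A, counted back from the start. In E2F3 the match was to TTTCCCGC on the opposite strand, at −53 to −46 of the first of its annotated starts. Bases just after the RefSeq start were found near the start of a GENCODE transcript for each other gene printed, but for neither start of E2F3. E2F4 held none of the 3 motifs, and the same was so for E2F7 and CCNE1, whose sequences are not printed. E2F4, E2F7 and CCNE1 changed by −1.50, −2.39 and −2.85 (log2, deposited) at day 5. Any relation of motif and change was not tested. The last bases printed for E2F1, with most of the marked match, lie inside that gene as GENCODE annotates it, from base 33686404.

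Over the 250 bases before the start, promoters were searched for 7 of the 10 genes (E2F1, E2F2, E2F3, E2F4, E2F7, CCNE1 and CDC25A). CCNE2 was left out of the search, and no promoter entry was used for E2F8 and CDK2. Of these 7 genes, 4 held at least 1 of the 3 E2F motifs, as did 777 of all 27305 genes with a promoter of that length (2.85%). Among 20 further E2F target genes with a promoter in the table, 9 held one. E2F7, CCNE1 and the second start of E2F3 had no match, which says only that these exact letters are not in that window. The windows of E2F7 and CCNE1 lie partly, and that of the second start of E2F3 wholly, inside the genes as GENCODE annotates them. The letters CCAAT, the core of the NF-Y site, occurred in 4 of the 7 genes and in 37% of all genes. TTTGAA, the core of the CHR element bound by DREAM and MuvB complexes, was found in E2F3 alone among the 7 and in 16.1% of all genes, and TTCGAA in none of the 7 and 1.498% of all genes.

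All 10 chosen genes were lower in NGI-1-treated cells. E2F5, an E2F not among them, was not called at day 2, day 3 or day 5 as deposited (log2 fold change 0.13, 0.13 and −0.24). It was called higher at day 3 and day 5 after rescaling (0.89 and 0.84). At day 2, day 3 and day 5 all 10 genes were called lower than untreated, and none was called higher. The shares of all tested features called lower were 23.2%, 61.5% and 69.8% on those days, and those called higher were 8.03%, 7.59% and 7.73%. The median log2 fold change of the 10 genes was −1.76, −3.17 and −3.40. After rescaling, 9 of the 10 genes were called lower on each day, all but E2F4, and again none was called higher. On that scale 11.4%, 24.2% and 26.9% of all tested features were called lower and 12.9%, 23.9% and 27.5% higher, and the median of the 10 genes was −1.51, −2.45 and −2.48. In all 10 genes every treated library lay below every untreated library on each day, as was so for 44.1%, 70.5% and 75.2% of all tested features. In these bulk libraries a smaller share of cells in the phase that transcribes these genes and less RNA per cell cannot be told apart.

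**Figure D1:**
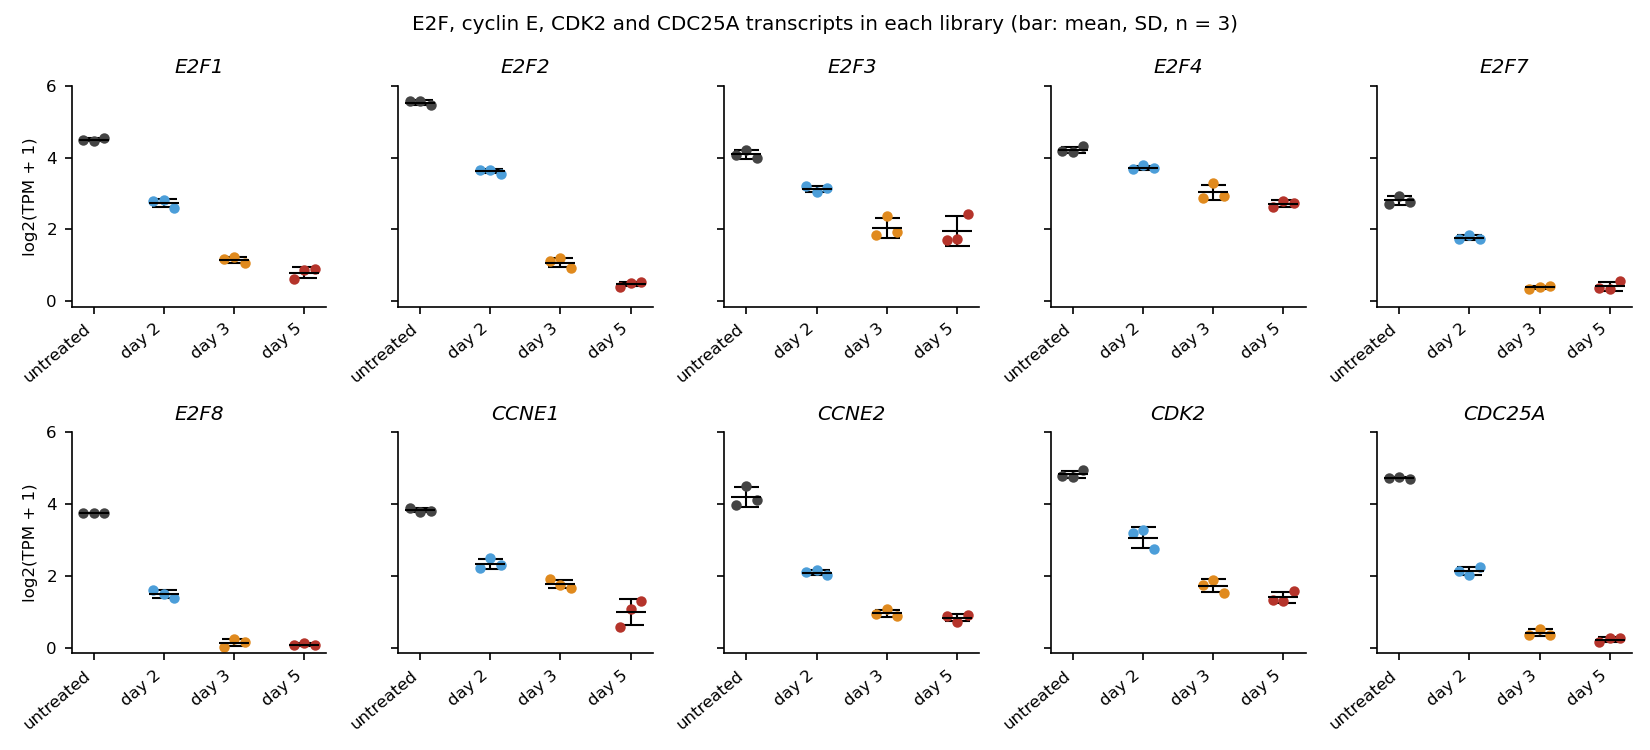
Level of each gene in log2(TPM + 1) (vertical axis) in untreated cells and after 2, 3 and 5 days of NGI-1 (horizontal axis); points are single libraries, and bars give the mean and SD (n = 3). All treated libraries sit below the untreated ones in every panel, and E2F4 keeps the highest treated levels. E2F7, E2F8 and CDC25A lie close to 0 from day 3 on.

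E2F1 (chr20:33675683-33686404, minus strand; all gene positions are those of GENCODE 29 on GRCh38), an activator of the genes of S phase, was lower at each later day. The untreated libraries held 21.4, 21.0 and 22.4 TPM, against 5.86, 6.13 and 5.08 TPM at day 2. They were followed by 1.25, 1.35 and 1.08 TPM at day 3 and 0.540, 0.810 and 0.864 TPM at day 5. No library of one day overlapped with those of another. The log2 fold change against untreated was −1.76 ± 0.12 (SE) at day 2, −3.35 ± 0.12 at day 3 and −3.71 ± 0.12 at day 5 (limma adjusted p = 1.62e-07, 4.21e-11 and 9.23e-12), or −1.50, −2.63 and −2.85 after rescaling. The further step from day 3 to day 5 was −0.36 ± 0.12 (limma adjusted p = 0.043) and missed the fold minimum for a call, as did the rescaled step of −0.22 (limma adjusted p = 0.19).

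E2F2 (chr1:23506430-23531220, minus strand), also an activator, was the most abundant of the 10 transcripts in untreated cells. It measured 46.6, 46.9 and 42.9 TPM in untreated libraries and 11.7, 11.7 and 10.8 TPM at day 2. Levels then went to 1.16, 1.28 and 0.906 TPM at day 3 and 0.324, 0.415 and 0.441 TPM at day 5. Each group lay wholly below the one before it, and the mean at day 5 was 0.865% of untreated, or 2.01% after rescaling. E2F8 and CDC25A, at 0.497% and 0.655%, were lower still on this TPM scale, although the log2(TPM + 1) change of E2F2 was the largest of the 10 at day 5. The log2 fold changes were −1.91 ± 0.11, −4.46 ± 0.11 and −5.06 ± 0.11 (limma adjusted p = 4.25e-08, 1.87e-12 and 3.50e-13), or −1.66, −3.74 and −4.28 after rescaling. With CCNE1, E2F2 was called lower again between day 3 and day 5, by −0.60 ± 0.11 (limma adjusted p = 0.0026; −0.54 after rescaling).

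E2F3 (chr6:20401906-20493715, plus strand), the third activator, had smaller changes. Its untreated libraries held 15.9, 17.5 and 14.8 TPM and those of day 2 held 8.19, 7.25 and 7.89 TPM. At day 3 it measured 2.62, 4.18 and 2.78 TPM and at day 5 2.29, 2.31 and 4.44 TPM, so these groups overlapped, with 1 high library in each. The log2 fold change was −0.96 ± 0.19 at day 2, −2.04 ± 0.19 at day 3 and −2.13 ± 0.19 at day 5 (limma adjusted p = 0.0012, 4.26e-07 and 1.52e-07). After rescaling the values were −0.72, −1.28 and −1.09. The difference between day 5 and day 3 was −0.09 ± 0.19, or 0.19 ± 0.15 after rescaling, so its sign followed the scale and the day 3 and day 5 libraries were not separable.

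E2F4 (chr16:67192169-67198918, plus strand), which acts mainly with the pocket proteins p107 and p130 to repress genes in resting cells, had the smallest change of the 10 on each of the 3 days. Untreated libraries held 17.1, 17.0 and 19.1 TPM, and day 2 libraries 11.8, 12.8 and 12.1 TPM. The later libraries held 6.39, 8.72 and 6.69 TPM at day 3 and 5.15, 5.94 and 5.72 TPM at day 5. The deposited values changed by −0.50 ± 0.12, −1.19 ± 0.12 and −1.50 ± 0.12 on the log2 scale (limma adjusted p = 0.0045, 9.38e-07 and 5.18e-08), all with separate libraries. The day 2 change sat at the fold minimum of the call, which was lost without untreated replicate 3 (−0.45), day 2 replicate 1 (−0.48) or day 2 replicate 3 (−0.50). After rescaling the E2F4 differences were −0.28 ± 0.10, −0.39 ± 0.10 and −0.40 ± 0.10 (limma adjusted p = 0.043, 0.0043 and 0.0035), below the fold minimum on every day.

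**Figure D2:**
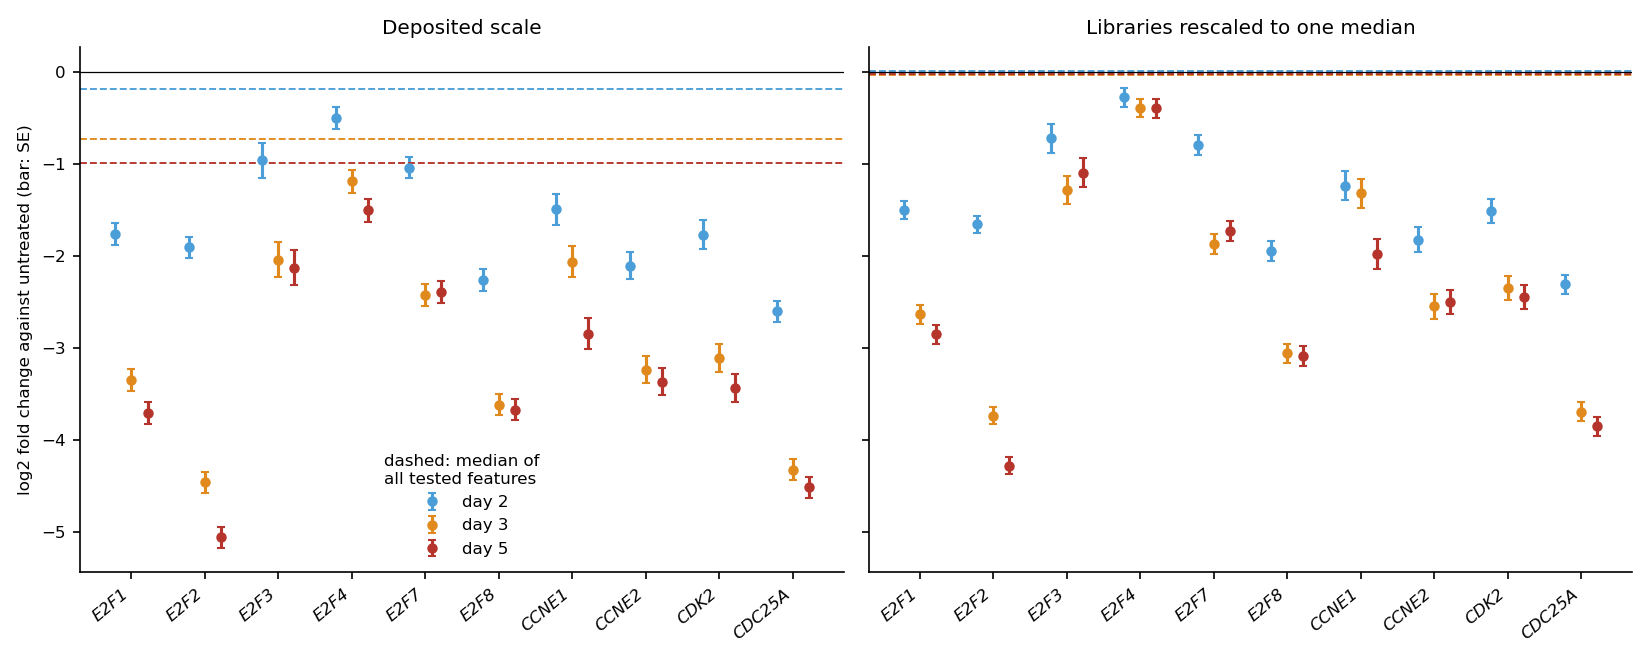
Log2 fold change against untreated with its SE (vertical axis) for each gene at day 2 (blue), day 3 (orange) and day 5 (red), on the deposited scale (left) and after rescaling (right); dashed lines are the medians of all tested features. On both scales E2F2 and CDC25A lie lowest at day 5 (−5.06 and −4.51 deposited) and E2F4 highest (−1.50 deposited, −0.40 rescaled).

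The atypical repressors E2F7 (chr12:77021247-77065580) and E2F8 (chr11:19224063-19241620), both on the minus strand, which bind E2F sites without a DP partner and shut off E2F genes late in S phase, were also lower. E2F7 measured 5.60, 6.68 and 5.77 TPM in untreated libraries and 2.34, 2.61 and 2.30 TPM at day 2. It then stood at 0.259, 0.325 and 0.332 TPM at day 3 and 0.292, 0.252 and 0.462 TPM at day 5, with the latter groups overlapping. Its log2 fold changes were −1.04 ± 0.12, −2.42 ± 0.12 and −2.39 ± 0.12 (limma adjusted p = 1.36e-05, 8.54e-10 and 4.93e-10), or −0.79, −1.87 and −1.73 after rescaling. E2F8 had 12.5, 12.5 and 12.6 TPM in untreated libraries and 2.03, 1.84 and 1.60 TPM at day 2. Its levels were then near 0, at 0.0159, 0.173 and 0.124 TPM at day 3 and 0.0444, 0.0949 and 0.0475 TPM at day 5. The log2 fold changes of E2F8 were −2.26 ± 0.12, −3.62 ± 0.12 and −3.67 ± 0.12 (limma adjusted p = 1.32e-08, 1.03e-11 and 5.75e-12), or −1.95, −3.06 and −3.09 after rescaling. On the TPM scale the mean of E2F8 at day 3 was 0.834% of untreated, against 5.07% for E2F7. Both sat well below the added 1 TPM at day 3 and day 5, and with 0.1 TPM added the day 5 log2 fold changes were −3.84 for E2F7 and −6.295 for E2F8. An annotated antisense gene, AC009652.2, overlaps E2F8, and whether the counting used strand is not given in the sources used here.

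CCNE1 (chr19:29811898-29824308, plus strand) and CCNE2, which encode the E-type cyclins that activate CDK2, were lower throughout, and only CCNE1 of the pair was called lower from day 3 to day 5; the difference between their courses was not tested. CCNE1 had 13.98, 12.8 and 13.1 TPM in untreated libraries, 3.69, 4.67 and 3.92 TPM at day 2 and 2.75, 2.38 and 2.17 TPM at day 3. At day 5 its libraries were spread over 0.498, 1.12 and 1.48 TPM, all below day 3. Against untreated the log2 fold change of CCNE1 was −1.49 ± 0.17, −2.06 ± 0.17 and −2.85 ± 0.17 (limma adjusted p = 1.09e-05, 1.14e-07 and 2.41e-09), or −1.23, −1.32 and −1.98 after rescaling. Between day 2 and day 3 CCNE1 differed by −0.57 ± 0.17 (limma adjusted p = 0.0078), but by −0.08 ± 0.16 after rescaling (limma adjusted p = 0.68), and the deposited call was lost without day 2 replicate 2 (−0.49). Between day 3 and day 5 it was called lower on both scales, by −0.78 ± 0.17 and −0.66 ± 0.16 (limma adjusted p = 0.0050 and 0.020). Without the lowest library, day 5 replicate 1, that last change was −0.58 and still called.

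CCNE2 had 14.7, 21.9 and 16.3 TPM in untreated libraries, with the second library high, and 3.30, 3.47 and 3.07 TPM at day 2. It reached 0.930, 1.10 and 0.833 TPM at day 3 and stayed at 0.846, 0.653 and 0.865 TPM at day 5, with overlapping libraries. The log2 fold changes of CCNE2 were −2.11 ± 0.14, −3.24 ± 0.14 and −3.37 ± 0.14 (limma adjusted p = 1.45e-07, 2.96e-10 and 1.22e-10), or −1.82, −2.55 and −2.50 after rescaling. The log2 ratio of CCNE2 to CCNE1 within a library, from which any scaling of the library cancels, was 0.39 ± 0.35 (SD, n = 3) in untreated cells, −0.31 ± 0.14 at day 2 and −1.36 ± 0.23 at day 3. At day 5 the ratio was 0.77, −0.78 and −0.77, so that 1 library, the one lowest in CCNE1, stood on the other side of 0. CCNE2 overlaps INTS8 (17.9 to 73.6 TPM) and NDUFAF6 (9.06 to 20.4 TPM) on the opposite strand, and reads of these genes could not be told apart from those of CCNE2 had the counting ignored strand.

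CDK2 (chr12:55966769-55972784, plus strand), the catalytic partner of cyclin E, had 26.8, 26.3 and 29.7 TPM in untreated libraries and 8.10, 8.69 and 5.69 TPM at day 2. Later libraries held 2.35, 2.73 and 1.90 TPM at day 3 and 1.52, 1.46 and 1.98 TPM at day 5, which overlapped. The log2 fold changes were −1.77 ± 0.16, −3.11 ± 0.16 and −3.44 ± 0.16 (limma adjusted p = 1.19e-06, 9.94e-10 and 2.06e-10), or −1.51, −2.35 and −2.45 after rescaling. PMEL, which overlaps CDK2 on the opposite strand, was at 0.0757 to 0.834 TPM.

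CDC25A (chr3:48157146-48188402, minus strand), the phosphatase that activates CDK2, had the largest fall of the 10 at day 2. The untreated libraries agreed closely at 25.8, 26.0 and 25.3 TPM, and those of day 2 held 3.41, 3.06 and 3.73 TPM. Day 3 libraries had 0.287, 0.447 and 0.272 TPM and day 5 libraries 0.109, 0.195 and 0.200 TPM, below all of day 3. The day 2 log2 fold change of −2.60 ± 0.12 (limma adjusted p = 3.62e-09) was the 5th lowest of all 11939 tested features. It was −4.32 ± 0.12 at day 3 and −4.51 ± 0.12 at day 5 (limma adjusted p = 2.54e-12 and 8.00e-13), and −2.31, −3.69 and −3.85 after rescaling. The mean TPM of CDC25A was 13.2% of untreated at day 2 and 0.655% at day 5.

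Most of the fall took place by day 3. From day 2 to day 3 all 10 genes were called lower, with no overlap between libraries, beside 55.5% of all tested features called lower, 3.22% called higher and 70.1% with all libraries below. After rescaling 8 of the 10 were called lower over that step, all but E2F4 and CCNE1. On that scale 13.6% of all tested features were called lower and 14.3% higher. On the log2(TPM + 1) scale the largest step was that of E2F2 (−2.56 deposited, −2.08 rescaled), whereas with 0.1 TPM added it was −3.32 for E2F8 and −3.25 for E2F2. From day 3 to day 5 E2F2 and CCNE1 were called lower on both scales and none was called higher, beside 13.1% of features called lower and 0.67% higher as deposited, and 2.03% lower and 4.43% higher after rescaling. In 5 of the 10 genes the day 5 libraries all lay below those of day 3 as deposited, as in 34.1% of tested features. The 5 genes were E2F1, E2F2, E2F4, CCNE1 and CDC25A. These steps share their day 3 libraries, and the comparisons with untreated share the untreated ones.

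The order of the transcripts was rearranged. In untreated cells E2F2 (45.5 TPM) led, followed by CDK2 (27.6), CDC25A (25.7) and E2F1 (21.6 TPM), each with libraries apart from the next, while E2F4, CCNE2 and E2F3 (17.7, 17.6 and 16.1 TPM) overlapped. At day 3 and day 5 E2F4 was the most abundant (7.27 and 5.60 TPM), with E2F3 next (3.20 and 3.01 TPM), and both days had E2F4 apart from E2F3. At day 5 CDK2, CCNE1, CCNE2 and E2F1 followed at 1.65, 1.03, 0.788 and 0.738 TPM, with each overlapping its neighbour. E2F8 was lowest at every treated day.

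Within each library the make-up of the E2F family moved from E2F1, E2F2, E2F7 and E2F8 toward E2F4, E2F5 and E2F6, while E2F3 held its share. The summed TPM of the 8 genes E2F1 to E2F8 was 146.5 ± 3.33 (SD, n = 3) in untreated cells, 62.7 ± 1.76 at day 2, 29.5 ± 4.16 at day 3 and 23.7 ± 3.64 at day 5. E2F1, E2F2 and E2F3 together made up 56.8% ± 1.49 of this sum in untreated cells, 39.7% ± 0.92 at day 2, 18.7% ± 1.21 at day 3 and 17.2% ± 3.17 at day 5. E2F4 and E2F5 together went the other way, from 17.8% ± 1.58 to 34.2% ± 2.34, 55.7% ± 2.39 and 52.8% ± 0.86. Between untreated cells and day 5, E2F4 alone went from 12.1% to 23.9% and E2F5 alone from 5.66% to 28.95%. These shares do not depend on how a library was scaled, were chosen after the values were seen and carry no test.

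Of the single genes, E2F2 alone went from 31.0% of the E2F sum to 1.66% at day 5, while E2F3 kept a share of 10.96%, 12.4%, 10.7% and 12.4%. The share of E2F6, a repressor that works without pocket proteins, was 12.8% ± 0.55, 19.3% ± 1.25, 24.3% ± 2.58 and 28.3% ± 2.49. Its level itself fell, from 18.8 TPM to 12.1, 7.12 and 6.67 TPM, and was called lower on each day (−0.60, −1.29 and −1.37). After rescaling E2F6 was not called on any day (−0.37, −0.49 and −0.25). The share of E2F7 and E2F8 went from 12.7% ± 0.10 to 6.76% ± 0.42, 1.38% ± 0.33 and 1.67% ± 0.18. The same is seen in the log2 ratio of E2F1 to E2F4, which was 0.29 ± 0.05 (SD, n = 3), −1.11 ± 0.13, −2.56 ± 0.18 and −2.95 ± 0.27, with no overlap between groups. Among the atypical E2Fs the log2 ratio of E2F8 to E2F7 was 1.06 ± 0.14 and −0.41 ± 0.18 in untreated and day 2 libraries. It was −4.03, −0.91 and −1.42 in the day 3 libraries and −2.72, −1.41 and −3.28 in those of day 5, where both genes were below 0.5 TPM and the spread was wide.

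**Figure D3:**
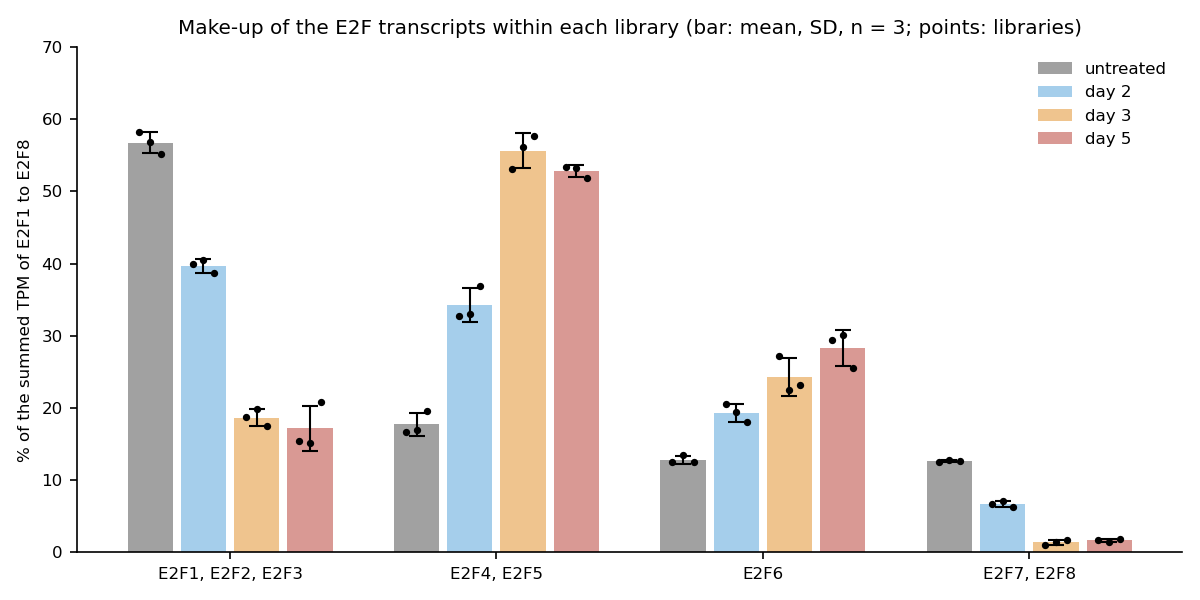
Share of the summed TPM of E2F1 to E2F8 (vertical axis, percent) held by the activators, by E2F4 with E2F5, by E2F6 and by the atypical E2Fs, in each group; bars are means with SD (n = 3) and points are libraries. The activators go from 56.8% to 17.2% and E2F4 with E2F5 from 17.8% to 52.8% between untreated cells and day 5.

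The other genes of the pathway were examined in 6 named lists, read beside the background shares given above. Of 13 E2F partners, pocket proteins and MuvB subunits, 8, 11 and 12 were called lower at day 2, day 3 and day 5 and none higher. The median log2 fold change of this list was −0.60, −1.38 and −1.67, and after rescaling −0.37, −0.52 and −0.61 with 6, 7 and 8 called lower. MYBL2, the MYB protein that joins MuvB to activate late cell cycle genes, changed most, from 267.0 TPM to 55.3, 5.92 and 2.59 TPM, a log2 fold change of −6.22 ± 0.11 at day 5 (limma adjusted p = 6.28e-14; −5.15 rescaled).

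E2F5, the closest relative of E2F4, changed least in that list. It held 7.04, 8.51 and 9.36 TPM in untreated libraries and 5.71, 6.44 and 8.57 TPM at day 5, which overlapped (log2 fold change −0.24 ± 0.17, limma adjusted p = 0.18). After rescaling E2F5 was called higher at day 5, by 0.84, so its direction depended on the scale.

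Of the other G1 and S phase cyclins and kinases, 7 of 9 were tested, and the number called lower was 5 at day 2, then 7 on either later day. Rescaling left 5, 7 and 6 called lower and none higher. CCNA2, the cyclin that takes over CDK2 in S phase, had the largest fall at day 5 (−5.40 ± 0.14, limma adjusted p = 7.08e-13; −4.60 rescaled). CDK4, a partner of the D-type cyclins, had the smallest, at −1.63 ± 0.10 (limma adjusted p = 5.63e-09), and its rescaled value of −0.42 was not called.

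The CDK inhibitors did not share 1 direction after rescaling. Of 7 listed, 5 were tested, and 2, 3 and 3 were called lower at day 2, day 3 and day 5 and none higher, with medians of −0.19, −0.79 and −1.06 that lay close to those of all tested features. After rescaling 0, 1 and 0 were called lower and 1, 2 and 2 higher. CDKN1A, which encodes p21, had the largest fall at day 5 (−1.62 ± 0.13, limma adjusted p = 5.09e-08), or −0.45 after rescaling, which was not called. Its course was not even, at 36.3, 25.1, 7.71 and 11.3 TPM in order of time. At day 3 CDKN1A was called lower on both scales (−2.10 deposited, −1.28 rescaled). From day 3 to day 5 CDKN1A and CDKN2A were called higher after rescaling (0.82 and 0.52) but not as deposited (0.48 and 0.18). CDKN1B, which encodes p27, an inhibitor of cyclin E with CDK2, held 25.1, 27.2 and 23.6 TPM in untreated libraries and 26.3, 30.4 and 39.4 TPM at day 5. These overlapped, with a log2 fold change of 0.31 ± 0.13 (limma adjusted p = 0.034) that missed the fold minimum, and CDKN1B was called higher after rescaling (1.497). The transcript of CDKN2C, which encodes p18, an inhibitor of CDK4 and CDK6, was abundant at 374.1 TPM in untreated cells and 301.4 TPM at day 5 (−0.31 ± 0.07, not called), and was called higher after rescaling (0.91).

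Among 8 regulators of CDK phosphorylation, not all specific to CDK2, 5, 5 and 6 were called lower at day 2, day 3 and day 5 and none higher. The list divided by function. CDC25B, CDC25C, WEE1, PKMYT1 and CHEK1 are phosphatases and kinases of the inhibitory sites of CDKs and their checkpoint kinase. Their day 5 log2 fold changes were −4.49, −4.02, −3.55, −4.18 and −5.45, and each was also called lower after rescaling. CDK7, CCNH and MNAT1, the subunits of the CDK-activating kinase, had −0.84, −0.41 and 0.01, of which CDK7 was called lower, and after rescaling CCNH (0.80) and MNAT1 (1.19) were called higher. This split and the genes beyond CHEK1 and MNAT1 were named after their values were seen.

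Of 12 genes for the turnover of E2F1, cyclin E and CDC25A, the counts called lower were 7, 10 and 10 in order of time, with none higher. After rescaling 6, 8 and 8 were called lower and 1, 2 and 2 higher. FBXO5, an inhibitor of the anaphase-promoting complex and itself a known E2F target, changed most (−3.89 ± 0.13 at day 5, limma adjusted p = 9.96e-12; −2.88 rescaled). FBXW7, the receptor that marks phosphorylated cyclin E for degradation, changed least at −0.25 ± 0.17 (limma adjusted p = 0.17), and together with RBX1 (−0.46 ± 0.08) it was called higher after rescaling (0.84 and 0.74).

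The 23 E2F targets, which encode replication and nucleotide synthesis proteins and cell cycle regulators, were all called lower at day 2, day 3 and day 5 on both scales. Their median log2 fold change was −2.003, −4.05 and −4.43, or −1.76, −3.39 and −3.62 after rescaling. RRM2, the small subunit of ribonucleotide reductase, had the largest fall at day 5 (−7.67 ± 0.15, limma adjusted p = 1.46e-13; −6.68 rescaled) and POLA1, the catalytic subunit of DNA polymerase alpha, the smallest (−2.68 ± 0.14, limma adjusted p = 7.70e-10; −1.89 rescaled). From day 3 to day 5, 10 of the 23 were called lower as deposited and 5 after rescaling. MYBL2, CCNA2 and RBL1 stand in this list and in another of the lists above.

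**Figure D4:**
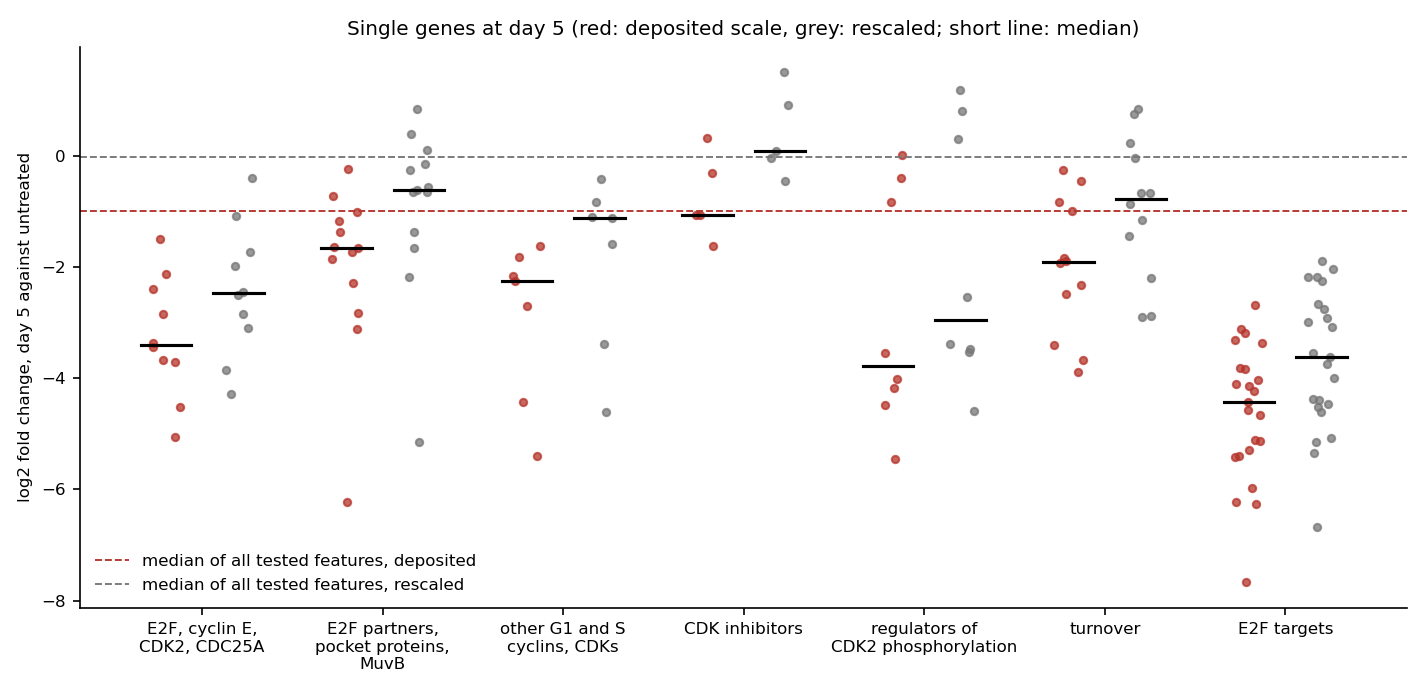
Log2 fold change at day 5 against untreated (vertical axis) of the 10 genes described and of each tested gene of the 6 lists, on the deposited scale (red) and after rescaling (grey); short lines are list medians and dashed lines the medians of all tested features. The E2F targets lie lowest, with a median of −4.43. The median of the CDK inhibitors lies close to that of all tested features on either scale.

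As a description of the course over the 12 libraries, the features most like each gene were taken by Pearson r of log2(TPM + 1). E2F1 was most like MCM4 and RRM1 (r = 0.999 for both), a helicase subunit and the large subunit of ribonucleotide reductase. CDC25A was most like GINS1 and MCM10 (r = 0.999 for both), E2F8 like KIF18B and GINS1 (0.999 and 0.998) and CCNE2 like XRCC2 and KNTC1 (0.997 and 0.997). E2F2 was most like SPAG5 and CDCA2 (0.999 for both), E2F7 like NEMP1 and KIF4A (0.996 and 0.995), and CDK2 like RELT and TMPO-AS1 (0.998 and 0.997). E2F3, with TET3 and GTF3C4 (0.997 and 0.996), E2F4, with GPKOW and DHX37 (0.995 for both), and CCNE1, with H3-3A and LRRC20 (0.993 and 0.992), had other neighbours. All points share the 4 groups and the change in library make-up, and 1001 to 3634 features exceeded r = 0.95 with each gene.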

How the data were processed

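MM1S libraries were grouped by the day given in the labels, with day 0 taken as untreated: its treatment label also names NGI-1, but the study's methods describe treated cells of day 2, 3 and 5 only. Per the labels, total RNA (200 ng) gave more than 60 M read pairs per library. The authors deposited log2(TPM + 1) values for 59276 features. The submitters' processing notes name FastQC, Trimmomatic, STAR, Salmon and the build hg38; annotation, versions and strand setting are not given in the sources used here. TPM is a share of a fixed total, so a rise of abundant transcripts lowers all others. Features with at least 1 TPM in at least 3 libraries (11939) were fitted on the deposited scale with limma 3.58.1 in R 4.3.3, with 1 mean per group over 12 libraries, a mean-variance trend and two-sided Benjamini-Hochberg adjusted p over all tested features of a comparison. The script was tested on simulated data. For rescaling, each library was shifted to bring the median log2 difference from the 12-library average to 0, taken over 5433 features averaging at least 10 TPM. Within-library ratios used TPM without a pseudocount.

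The genes and lists were chosen with earlier results of these data known. Named genes were the 10 genes and, in each list, the largest fall and the largest rise or smallest fall at day 5. Also named were any gene called higher against untreated and, for each of the 10, the 2 features of highest Pearson r. CDKN2C, CCNH and RBX1, called higher after rescaling, were named after their values were seen. So were CDKN2A, called higher after rescaling from day 3 to day 5, and CDC25B, CDC25C, WEE1, PKMYT1 and CDK7, which complete their list. Gene positions came from GENCODE 29 and promoters from RefSeq (GRCh38.p14), matched by symbol. Alternatives were other filters, pseudocounts, scalings, fold minimums, samples in the fit and leaving out each library.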

Additional observations from a re-analysis of the deposited data

How the results depend on the processing

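No direction of the 10 genes reversed in any of the settings tried for a called value. The counts called lower against untreated and from day 2 to day 3 stayed within 1.5 times under every setting. From day 3 to day 5, 2 of the 10 genes were called lower; this became 4 with a pseudocount of 0.1 TPM, which added E2F1 (−0.68) and CDC25A (−0.70) and brought E2F2 to −1.30 and CCNE1 to −1.27, and 0 with a minimum log2 fold change of 1. With no fold minimum E2F1 (−0.36) was also called lower. The 13.1% of all tested features called lower over this step holds for 1 TPM added and a fold minimum of 0.5. Shares of all tested features under the changed settings are not given here. Whether the counts of 4 and 0 stand out from that background was therefore not tested. With the minimum of 1, E2F3 (−0.96) and E2F4 (−0.50) were not called at day 2, nor were E2F4 (−0.69) and CCNE1 (−0.57) from day 2 to day 3. Without the 20 most abundant features E2F4 at day 2 (−0.42) and CCNE1 from day 2 to day 3 (−0.48) fell short of the fold minimum. Over leaving out 1 library at a time, 4 single calls were lost, those of E2F4 at day 2 and CCNE1 named above. A pseudocount of 0.1 TPM brought the log2 ratio of E2F8 to E2F7 to −1.07 at day 3 (−2.12 without it) and −1.41 at day 5 (−2.47 without it; means, n = 3). No paired analysis was possible because the labels give libraries of different groups no shared replicate numbers. Mean levels below 1 TPM limit the folds of E2F7, E2F8, CDC25A and CCNE2 at day 3 and day 5 and of E2F1 and E2F2 at day 5, where 0.1 TPM added gave −4.72 for E2F1, −6.54 for E2F2, −4.31 for CCNE2 and −6.61 for CDC25A.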
